A study of Papilio xuthus with 10 samples.

Results

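The change from pupa to adult was examined in males of the swallowtail butterfly *Papilio xuthus*, by setting the male pupa library against the male adult library. Genes were compared if their RPKM (reads scaled by gene length and by the reads of the library) was 1 or more in either of the 2 male libraries. This gave 13256 of the 15123 genes in the table. The female pupa and female adult libraries were used to separate changes that were also made in the female from those seen in the male only.

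The series holds 10 RNA libraries from whole bodies, with 1 library for each of the egg, instars 1 to 5, and pupae and adults of each sex. Each pupal and adult library came from 1 animal, and only eggs and larvae of instars 1 and 2 were pooled. The ages of the pupae and adults and whether the adults had mated are not given in the sources used here. With 1 animal per sex and stage no test across samples was possible, and each difference below is a difference between a pair of animals.

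A butterfly pupa breaks down larval tissues and builds the wings, flight muscle, eyes, antennae and reproductive organs of the adult. The cuticle of the adult is laid down inside the pupal case, and flight, vision, scent and reproduction come into use after emergence. In moths and butterflies the male is the sex with 2 Z chromosomes, and spermatogenesis starts in the larva and goes on in the pupa. The male accessory glands of insects secrete proteins that pass to the female with the sperm. These statements are background, and no tissue was measured apart from the others here. In whole bodies a lower level can come from fewer cells of a type or from less RNA per cell, which cannot be told apart.

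As solved from the deposited values, the reads at genes summed to 30332633 in the male pupa and 30794531 in the male adult, and to 27650258 and 26855798 in the female pupa and adult. The total by which the values had been divided was solved as 35161755 for the male pupa and 31244864 for the male adult. This divisor cannot be taken as a sequencing depth. The reads at genes came to between 76.5% and 98.6% of it in the egg, instar 1, pupae and adults but to between 124% and 154% in instars 2 to 5. What the divisor counted, and whether a read could be counted at several genes, is not given in the sources used here. Levels in instars 2 to 5 stand on another footing than those of the other libraries. For a gene of 1 kb, 3 reads were worth 0.0853 RPKM in the male pupa library and 0.096 in that of the male adult. The table pairs its identifiers with no names, and 0 of them matched the 13139 RefSeq entries for assembly Pxut_1.1. Neither roles nor tissue and sex markers could therefore be assigned, and the labels of sex and stage were not checked against marker genes. Genes are described by their levels, lengths and order, and few identifiers are printed for each class.

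Of the 13256 genes, 11140 were detected at an RPKM of 1 or more in both male libraries, 820 in the pupa only and 1296 in the adult only. At the limit, the lowest gene taken in had 1.001 as its higher male value and the highest gene left out had 0.9999997. In either female library, 11859 of the genes were at 1 or more. The remaining 1397 were below 1 in both females.

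Change was measured as the difference in log2(RPKM + 1), adult minus pupa, and a gene is said to have risen or fallen if it differed by 2 or more, about 4-fold at levels well above 1. In the male 1348 genes rose, 10.2% of those compared, and 737 fell, 5.56%. Risers thus made up 64.7% of the 2085 changed genes. With a difference of 1 as the limit the balance turned, with 2885 risers and 3107 fallers, or 48.1% risers. Nearest to the limit were a riser at 2.00001 and a gene at 1.9997 that was left out, and a faller at -2.0007 and a gene at -1.9994. The exact 95% counting intervals of pupa and adult overlapped for 0 of the changed genes, an interval that covers counting error only. The median difference over all genes was -0.24, with quartiles of -0.95 and 0.82. The sign of the median rested on the scaling, as it was -0.11 with libraries scaled by the median ratio and -0.00 with the same sum without their 10 leading genes.

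**Figure D1:**
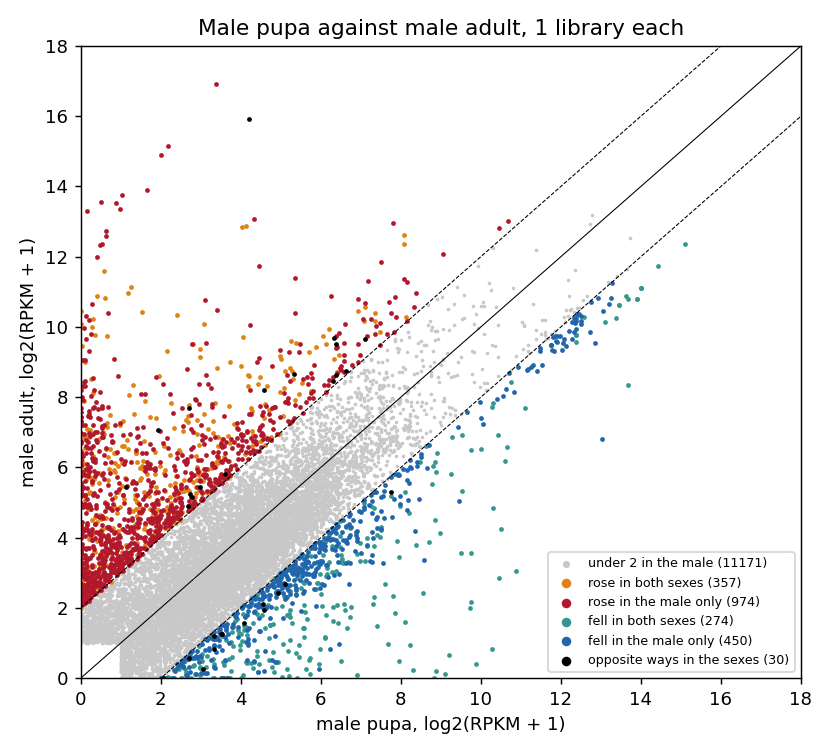
Each point is a gene, with its log2(RPKM + 1) in the male pupa on the x axis and in the male adult on the y axis. The solid line marks equal values and the dashed lines a difference of 2. Risers reach far above the upper line from pupal values near 0, whereas most fallers lie close under the lower line, and a dense group of abundant genes lies just past it near 12 on the x axis.

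Rises were larger than falls. Taken as a ratio of RPKM, with reads below 3 set to 3, the median rise was 16.5-fold and the median fall 7.55-fold. Rises of 100-fold or more were seen in 269 genes and falls of that size in 36. At 1000-fold or more the numbers were 61 and 10. As these ratios hold their denominator at 3 reads, they are lower limits for the 79 risers with 0 reads in the male pupa and the 29 fallers with 0 reads in the male adult. Genes that went from below 1 to 10 or more, here called switched on, numbered 364 (2.75% of those compared), and 74 (0.558%) were switched off in the reverse way.

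The rank order of genes changed more in the male. Spearman's rho between pupa and adult over the 13256 genes was 0.642 in the male and 0.788 in the female. Genes are not independent replicates, the genes were chosen on male values, and the difference between the sexes was not tested.

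Over the same genes the female step had 822 risers (6.2%) and 791 fallers (5.97%). Of the male risers 357 also rose in the female, which is 26.5% of the male risers and 43.4% of the female ones. Of the male fallers 274 also fell in the female, 37.2% of the male fallers and 34.6% of the female ones. Read against a background of 6.2% and 5.97%, both overlaps were above the share of all genes. Male and female differences had a Pearson correlation of 0.38 and a Spearman's rho of 0.243 across the 13256 genes. The 2 steps have no library in common, but libraries of a stage share its tissues.

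The genes that rose in both sexes were low in pupae and high in adults of either sex. Their median RPKM was 1.88 in the male pupa and 55.6 in the male adult, and 1.58 and 31.4 in the female. Most of them were also detected before the pupa. The median was 8.68 in the egg and between 4.25 and 9.28 in the larvae, and 52 of the 357 (14.6%) were below 1 in the egg and each instar, against 10.3% of all genes compared. In 40 of them an RPKM of 1 or more was seen in the adults and in no other library. Over all 13256 genes compared, 445 were at 1 or more in an adult and in no other library, 326 of them in the male adult alone. A gene that rose in both sexes was at 1 or more in both adults by the limit, so these counts are not alike. The male adult was the highest of the 10 libraries for 211 of the genes (59.1%) and the female adult for 73 (20.4%). Over all genes compared the shares were 19.1% and 22.2%.

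By the size of the smaller change, RR46_10599 led this class. It was at 0.499 RPKM (exact 95% interval 0.305 to 0.771) in the male pupa and 3100 (3082 to 3118) in the male adult, 6213-fold higher (4023 to 10172). The female pupa had 0.216 and the female adult 2536, and the egg and larvae had at most 0.263. The gene was thus near 0 through development and abundant in each adult. RR46_05646 was at 0.327 RPKM in the male pupa, from 4 reads, and 1903 in the male adult, 5822-fold higher (2274 to 21371). In the female it went from 3.97 to 4893. Unlike RR46_10599 it was also high early, with 582 in the egg and 559 in instar 1, and it was at 3.57 in instar 3.

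The genes that fell in both sexes had their highest median level in pupae. By summed RPKM they held 27% of the male pupa and 22.1% of the female pupa, but between 47.8% and 50.2% of instars 2 to 5. The median level was 52.4 RPKM in the male pupa, 60.8 in the female pupa, 2.81 in the male adult and 1.93 in the female adult. In an instar 262 of the 274 (95.6%) were at 1 or more, against 88.8% of all genes compared. A gene had to be well detected in the male pupa to fall by 2, which by itself favours detection in other libraries. The highest library was a pupa for 155 genes, the male pupa in 76 (27.7%) and the female pupa in 79 (28.8%), and instar 5 for 47 (17.2%). Over all genes compared the shares were 12.1%, 13.4% and 5.01% in the same order. In 123 of them (44.9%) some larval value was at or above that of the male pupa, against 56.6% of all genes compared. Choosing genes high in the male pupa lowers this share by itself.

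RR46_04345 fell from 589 RPKM (584 to 594) in the male pupa to 0.582 (0.417 to 0.789) in the male adult, 1013-fold lower. In the female it went from 1314 to 0.442. Its highest value in the egg and larvae was 2.19, so that it was a gene of the pupae of both sexes. RR46_07911 fell from 9466 (9425 to 9506) to 3.45 (2.68 to 4.39) in the male, 2741-fold, and from 6389 to 37.3 in the female. This gene came up earlier, with 1861 in instar 3, 21.5 in instar 4 and 17860 in instar 5. It fell by 11.05 in log2(RPKM + 1), more than any other gene compared in the male.

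The most abundant gene of the male pupa, RR46_00605, was in this class. Its level was 35263 RPKM in the male pupa and 5238 in the male adult, a difference of -2.75 beside -2.76 in the female. It is a gene of 240 bp that was far higher in larvae, up to 376114 in instar 2. Of the 10 most abundant genes of the male pupa, 9 fell in both sexes and 5 had a near-identical copy in the table. Together these 10 held 15.7% of the summed RPKM of the male pupa and 2.41% of that of the male adult. Reads of near-identical copies cannot be assigned with certainty, and 9 of the 274 genes have such a copy.

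The largest class was that of 974 genes that rose in the male without a change of 2 in the female. It was 7.35% of the genes compared and 72.3% of the male risers. Their median RPKM was 1.35 in the male pupa, 33.1 in the male adult, 1.49 in the female pupa and 2.62 in the female adult. The gap between the male pupa and the male adult follows from how the class was chosen. The choice also held the female adult within 2 of the female pupa, so the small female step is in part built in. Where the female levels lay beside the male ones was not fixed. In 620 of the genes both female values lay within 1 of, or below, the male pupa in log2(RPKM + 1). In 9 genes both female values were already within 1 of, or above, the male adult.

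**Figure D2:**
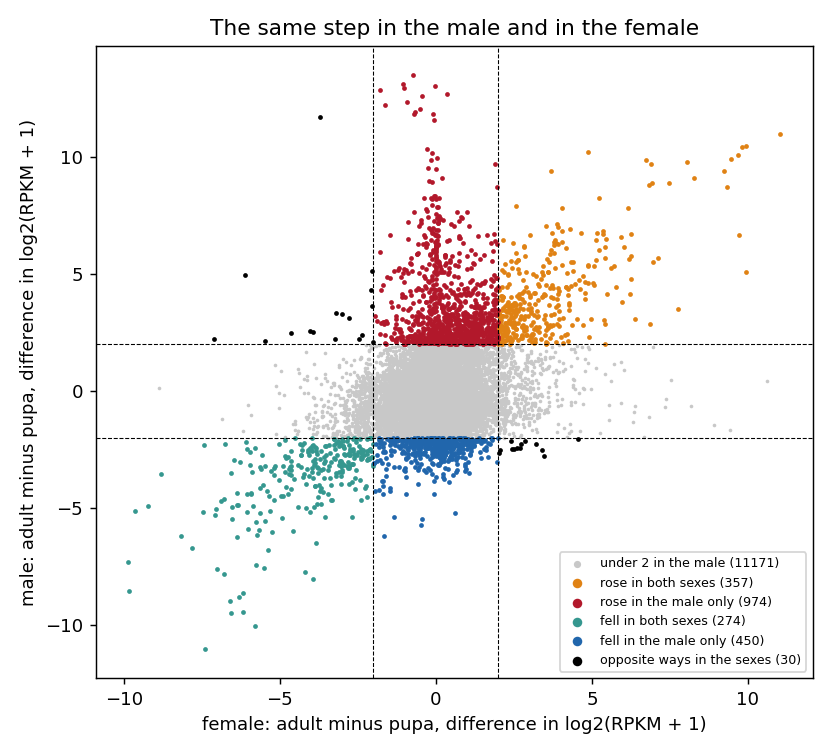
Each point is a gene, with the adult minus pupa difference in log2(RPKM + 1) of the female on the x axis and of the male on the y axis, and dashed lines at 2 and -2. A column of male risers stands over a female difference near 0 and reaches 13.53, while no column of that height is seen among the fallers, and the 357 and 274 genes that changed in both sexes run along the diagonal.

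A limit of 2 in the female does not by itself make the sexes differ, and the difference was not tested. Of the 974 genes, 282 also went up in the female by 1 to 2, 631 moved by less than 1 and 61 went down by 1 to 2. The male difference exceeded the female by 2 or more in 638 of them.

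Their share of the library differed between the male adult and the other 3 libraries. They held 1.32% of the summed RPKM of the male pupa and 40.9% of that of the male adult, against 1.38% and 3.2% in the female pupa and adult. Counted as reads at genes, which are not divided by length, the shares were 2.28% of the male pupa and 37.7% of the male adult, and 2.25% and 4.34% in the female. The leading gene alone held 11% of the male adult, the leading 5 held 19.6% and the leading 10 held 24.4%. The genes that rose in both sexes held 8.51% of the male adult and 7.56% of the female adult, a similar share in each sex. Choosing classes by changes between these same libraries pulls the shares in these directions by itself.

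**Figure D3:**
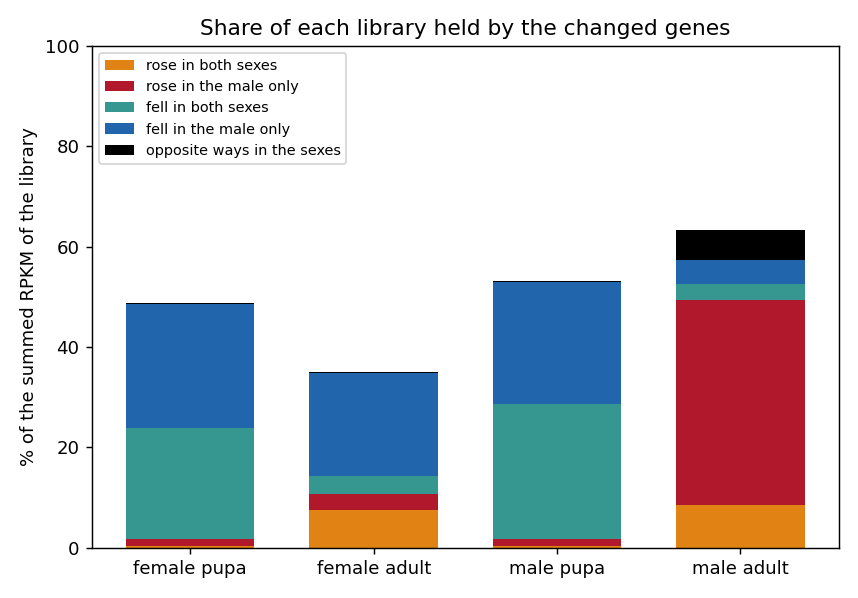
Stacked bars give the percentage of the summed RPKM of each of the 4 libraries held by each class of changed genes, from 0 to 100%. Genes that rose in the male only take 40.9% of the male adult and 3.2% or less of the other libraries, and genes that fell in the male only hold 20.7% of the female adult but 4.65% of the male adult. The classes were chosen by changes between these libraries, which pulls the shares in these directions by itself.

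The most abundant gene of the male adult was RR46_06207, of 231 bp. Its RPKM was 9.36 (7.37 to 11.7) in the male pupa and 122556 (122305 to 122808) in the male adult, 13098-fold higher (10464 to 16624). The female pupa had 7.05 and the female adult 3.82, and the egg and larvae had at most 7.59. It was thus low in every library but the male adult, where it was very abundant. RR46_15081, the next by size of rise among genes at 1 or more in both females and with a female difference under 1, was 21 in the male pupa and 3407 in the male adult, 163-fold higher (148 to 179). It was 17.0 in the female pupa and 16.4 in the female adult, so that both females stayed at the male pupal level.

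The 10 most abundant genes of the male adult had all risen in the male, 9 of them in the male only and 1 with a fall in the female. They lay between 10031 and 122556 in the male adult, and at most at 17.5 in the male pupa, 29.6 in the females and 7.59 in the egg and larvae. Together they held 29.1% of the summed RPKM of the male adult and 0.00347% of that of the male pupa. Most were short, as 7 of the 10 had a recovered length under 500 bp, and their median was 264 bp against 1035 bp over all genes compared. As RPKM divides by length, their share of reads at genes, 15.4%, was smaller than their share of RPKM. The next gene in order of RPKM had 9318.

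By their female levels the 974 genes fell into 3 sets. In 504 (51.7%) both female libraries were at an RPKM of 1 or more, in 254 (26.1%) both were below 1, and in 216 (22.2%) 1 of them was. Of all 13256 genes compared, 1397 were below 1 in both females. Taken singly, the female pupa was at 1 or more in 57.2% of the 974, against 84.1% of all genes compared. For the female adult the shares were 68.5% and 81.6%. Genes detected in both females had a median RPKM of 7.11 in the female pupa, 10.2 in the female adult, 5.65 in the male pupa and 52.8 in the male adult. The genes below 1 in both females had medians of 0.132, 0.148, 0.199 and 28.7 in the same order, so that the male pupa was as low as the females.

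RR46_12365 had the largest rise among genes below 1 in both females. It had 6 reads in each of the male pupa, female pupa and female adult, which gave an RPKM of 0.428, 0.462 and 0.428. The male adult had 12156 (12095 to 12217), 28424-fold above the male pupa (13059 to 77455), the largest ratio of any gene in the male. RR46_07378, of 2583 bp, went from 0.859 (0.679 to 1.07) to 11732 (11709 to 11755) in the male, with 0.678 and 0.243 in the female pupa and adult. Both genes were below 1 in the egg and each larva.

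Over the earlier stages these genes were less widely used than those that rose in both sexes. Below 1 in the egg and each instar were 233 of the 974 (23.9%), against 14.6% of the genes that rose in both sexes and 10.3% of all genes compared. An RPKM of 1 or more in the male adult and in none of the other 9 libraries was seen in 153 genes. Over all 13256 genes compared the number was 326. At the other end, 455 (46.7%) were at 1 or more in the egg and in each instar, against 64.2% of all genes compared. In 201 (20.6%) the highest larval value was at or above that of the male adult, against 61.1% of all genes compared. Set against the male pupa, the share was 82.9%, with 56.6% over all genes compared. Choosing genes high in the male adult and low in the male pupa pulls these shares apart by itself. Among the 201, that larva was instar 5 for 62 genes and instar 4 for 22, with the other instars between. The male adult was the highest library for 753 of the genes (77.3%), against 19.1% of all genes compared. The choice of genes raises this share by itself.

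The 450 genes that fell in the male only, 3.39% of those compared and 61.1% of the male fallers, showed another pattern. Their median was 45.4 RPKM in the male pupa and 7.11 in the male adult, and 42.0 and 48.8 in the female pupa and adult. In 329 of the genes both female values were within 1 of, or above, the male pupa in log2(RPKM + 1), so that 3 of the 4 libraries were high and the male adult was low. In 44 genes both females were within 1 of, or below, the male adult. The female adult was the highest of the 10 libraries for 135 genes (30%), the male pupa for 159 (35.3%) and the female pupa for 72 (16%). Over all genes compared the shares were 22.2%, 12.1% and 13.4%, so that the female pupa was near its background. Choosing genes high in the male pupa raises its share by itself.

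These genes were also broadly used before the pupa. The median was 26.6 in the egg and 8.24 in instar 5, and 363 of the 450 (80.7%) were at 1 or more in the egg and each instar, against 64.2% of all genes compared. Both females were at 1 or more in 398 genes (88.4%), against 51.7% of the male-only risers. Taken singly, the female pupa was at 1 or more in 92.2% of the 450, against 84.1% of all genes compared. For the female adult the shares were 90% and 81.6%. Both females were below 1 in 28 (6.22%), beside 1397 of all 13256 genes compared.

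**Figure D4:**
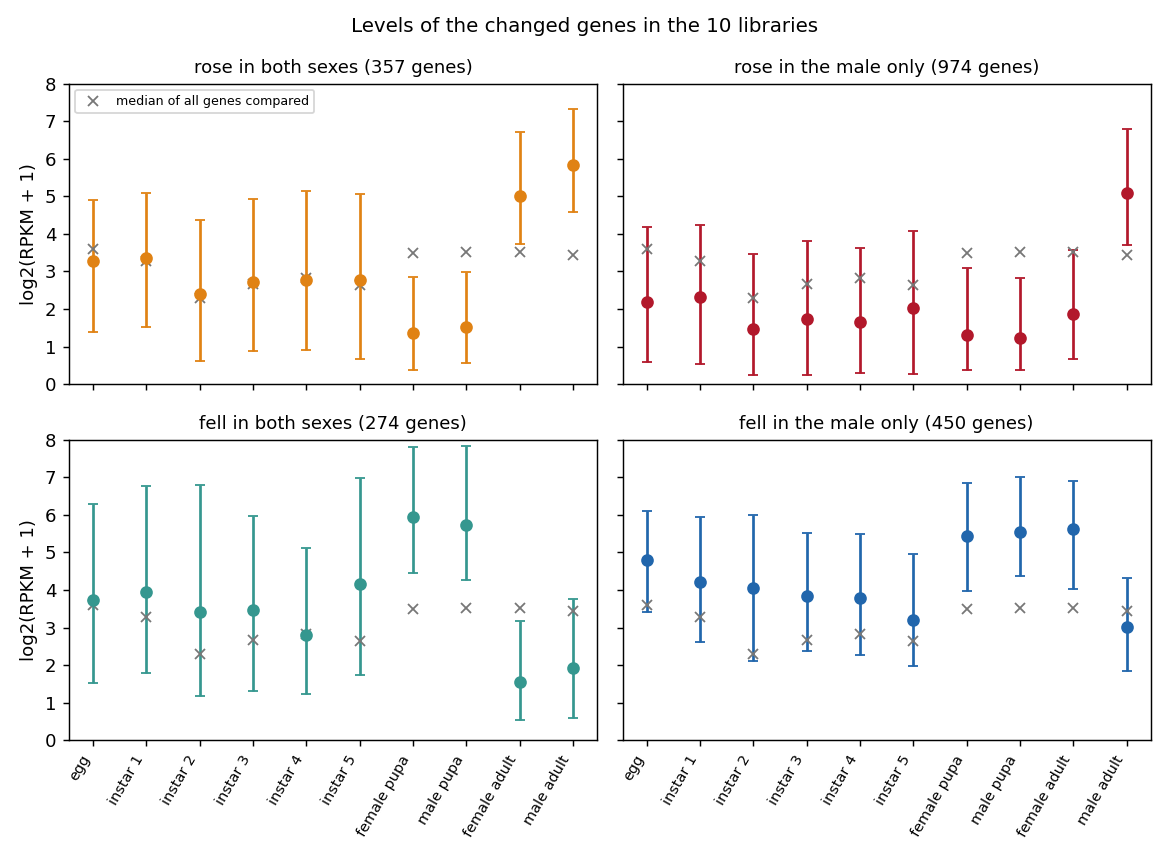
Points give the median log2(RPKM + 1) of each class in the 10 libraries, bars the quartiles over its genes, and crosses the median of all 13256 genes compared. Genes that rose in the male only are low in each library but the male adult, and genes that fell in the male only stay high in the female adult, where their median RPKM is 48.8 against 7.11 in the male adult.

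The falls were small beside the rises, with a median difference of -2.35 against 2.92. Of the 450 genes, 302 differed from the female by 2 or more, 70 also went down in the female by 1 to 2, and 43 went up by 1 to 2. RR46_05254 stood at 61.4 RPKM (58.3 to 64.7) in the male pupa and 0.191 (0.0521 to 0.49), from 4 reads, in the male adult, 321-fold lower (125 to 1180). It was 50.4 and 36.0 in the female pupa and adult, and between 90.3 and 426 in the egg and larvae. The male adult was thus the only library in which it was below 36.0. RR46_01535 had 87.5 (83.7 to 91.4) in the male pupa and 0.974 (0.595 to 1.5) in the male adult, and 19.0 and 13.6 in the female. It was at most 2.28 before the pupa.

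Among genes below 1 in both females, RR46_03592 fell from 23.2 (21.4 to 25) in the male pupa to 0.155 (0.0421 to 0.396) in the male adult. It was at most 0.685 in the egg and larvae, and 0.334 and 0.275 in the female, so that it was detected at 1 or more in the male pupa alone. RR46_10890 had 11.8 (10.1 to 13.7) in the male pupa, from 171 reads, and 0 reads in the male adult and both females, which makes it at least 50.7-fold lower in the male adult with 3 reads as the floor of a library. It had 17.3 in the egg and 25.1 in instar 1.

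Abundant genes made up much of this class by level. A set of 56 genes at 1000 or more in the male pupa, a level chosen after the values were seen, held 21.8% of the male pupa, 22.5% of the female pupa, 17.8% of the female adult and 4.25% of the male adult. The median of the set was 4093 RPKM in the male pupa, 769 in the male adult, 3993 in the female pupa and 2557 in the female adult. Their differences ran from -6.21 to -2.02 with a median of -2.35 in the male, and from -1.65 to -0.10 in the female, so that many lay just past the limit of 2.

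The falls depended on how libraries are scaled to each other. With the libraries rescaled to the same sum without their 10 leading genes, an alternative chosen after seeing the data, the median male difference moved up by 0.24. The genes that fell in the male only then numbered 298, and 34 of the 56 abundant ones were still past 2. The genes that rose in the male only numbered 1127. As deposited and at each of 4 other scalings, 886 of the 974 genes that rose in the male only and 299 of the 357 that rose in both sexes stayed in their class. So did 235 of the 274 genes that fell in both sexes and 276 of the 450 that fell in the male only. No named gene changed direction, which says little because most were named for large changes.

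**Figure D5:**
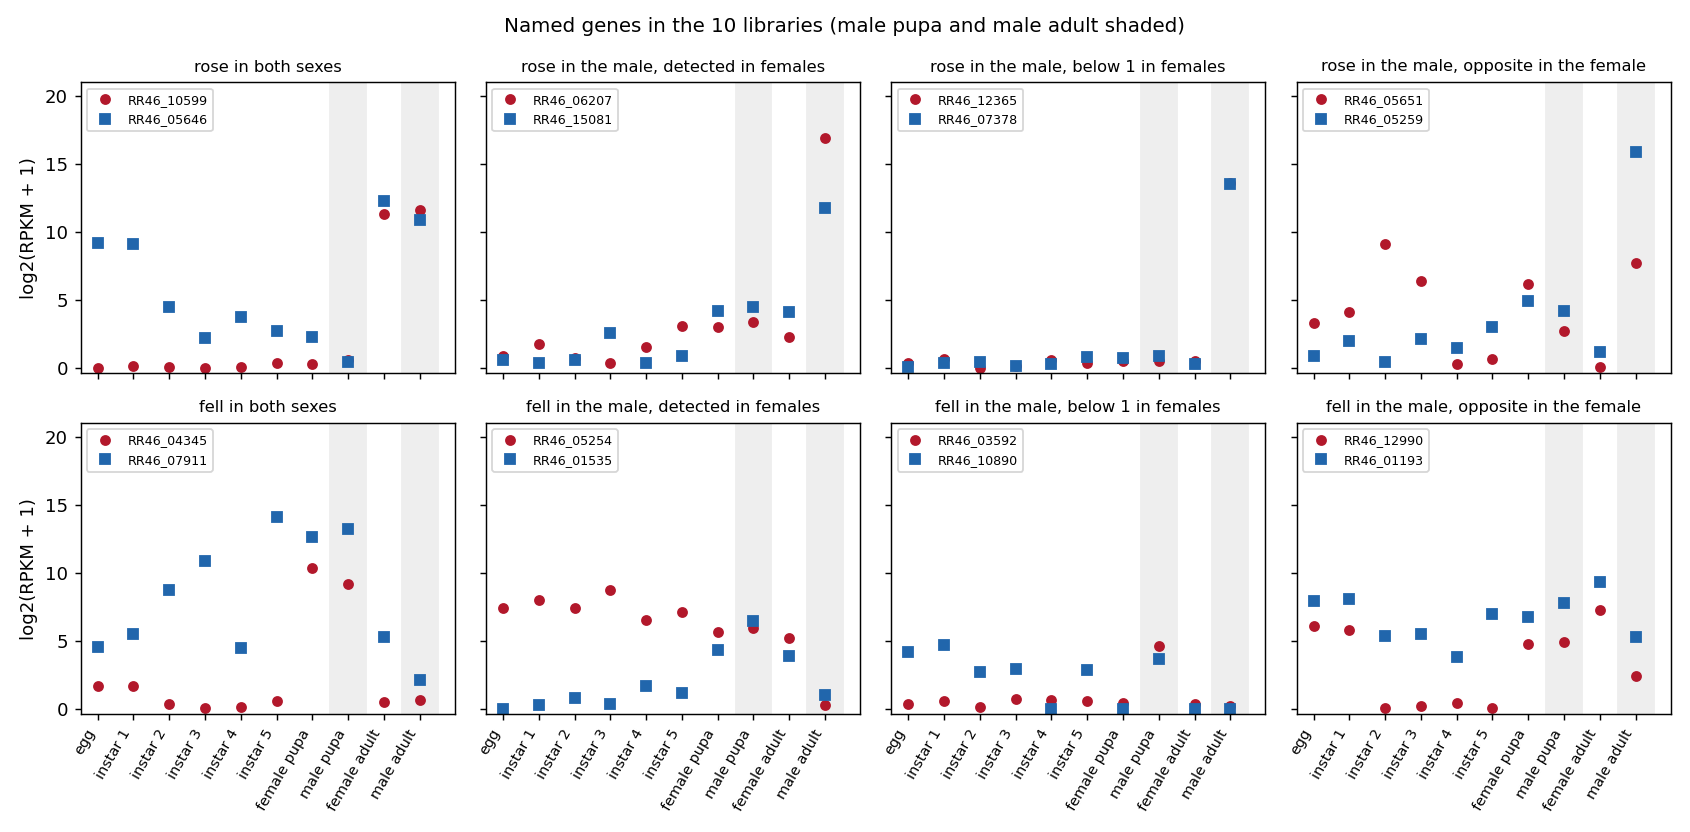
Points give log2(RPKM + 1) of the named genes in the 10 libraries, with the male pupa and male adult shaded, in 8 panels for the 4 classes of each direction. Points of RR46_12365 and RR46_07378 lie nearly on each other, at RPKM values of 12156 and 11732 in the male adult and below 1 elsewhere.

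Risers of the male often carried successive identifier numbers. Where the next number was also a gene compared, it was a riser for 376 of 1186 risers (31.7%), while 10.2% of all genes compared rose. For fallers the share was 102 of 657 (15.5%), against 5.56%. Runs of 3 or more successive numbers that all rose numbered 79 and held 289 genes, and runs of fallers numbered 12 with 45 genes. Rows follow the numbers in the table for 94.4% of successive rows, but whether the numbers run along the genome is not given in the sources used here. Genes side by side can also be similar copies whose reads are hard to assign, which was not tested beyond the near-identical copies.

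The longest runs of risers held 8 genes each. The run from RR46_06203 to RR46_06210 includes the most abundant gene of the male adult, RR46_06207, and each of its 8 genes rose in the male only. Values in this run ranged from 6.97 to 122556 in the male adult with a median of 25.5, and from 0.221 to 9.36 in the male pupa. The females ranged from 0.102 to 22.0. The high end was set by RR46_06207 and RR46_06209, the latter at 36202 in the male adult and named after its value was seen.

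Among fallers the longest run, from RR46_02555 to RR46_02560, held 6 short genes of 123 to 423 bp. Their median RPKM was 13295 in the male pupa and 1675 in the male adult, and 8321 and 1614 in the female, and 5 of them fell in both sexes. In the egg and larvae they reached 227428. Of these genes 3 have a near-identical copy.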

How the data were processed

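Total RNA of whole bodies was poly-A selected, reverse transcribed with random primers and sequenced from both ends on an Illumina instrument. The submitters' processing notes name TopHat 1.0.12 and 1.4.1. The counter, the use of strand and the treatment of multiple hits are not given in the sources used here. The authors deposited RPKM, which correct for gene length and a total per library but not for the composition of a library.

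Whole reads were solved from the ratios between values and came out for 100% of 15123 genes (tolerance 1e-06 reads). The scale of totals and lengths is the smallest that gives whole numbers, and 99.9% of lengths were then multiples of 3. Reads were used for ratios and exact Clopper-Pearson 95% intervals, which cover counting error only. As the unit is RPKM with 1 library per group, no count model and no test was run.

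Differences were taken in log2(RPKM + 1), which understates the change of low genes. Genes past 2 in the male were assigned to both sexes, male only or opposite by the female difference. Genes of the same length with reads within 2% or 3 reads in each library, and 100 or more in some library, were called near-identical copies (33 genes in 8 clusters). Named genes are the 2 per class and direction with the largest change (for genes changed in both sexes, the largest smaller change) among genes that reached 10 RPKM in a male library and had no such copy. Male-only genes were named separately for those at 1 or more in both females with a female difference under 1 and those below 1 in both. The most abundant gene of each male library was also named. The alternatives were another pseudocount, threshold, filter, scaling, definition of male only and treatment of copies. The members, limits and classes were chosen with earlier results of these data known. Marker and pathway lists could not be used without gene names. Scripts were tested on simulated data. Python 3.11.15, NumPy 2.4.6, pandas 2.3.3 and SciPy 1.17.1 were used.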

Additional observations from a re-analysis of the deposited data

Results flagged for a closer look

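Changes past 2 in opposite ways in the sexes were seen in 30 genes, and were set apart because the male and the female animals moved against each other. The difference between the sexes was not tested. In 17 genes the male rose and the female fell. Medians were 17.5 RPKM in the male pupa, 293 in the male adult, 53.6 in the female pupa and 2.2 in the female adult. In 13 genes the male fell and the female rose, with medians of 10.6, 1.4, 9.29 and 73.8 in the same order. In this set 12 genes were higher in the female adult than in the male pupa. Their median in the egg was 50.3 and in instar 5 it was 2.07.

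RR46_05259, of 195 bp, was the next most abundant gene of the male adult after RR46_06207. It rose by 11.70 in log2(RPKM + 1), from an RPKM of 17.5 (14.5 to 20.9) to 61749 (61553 to 61945), while the female went from 29.6 (25.5 to 34.2) to 1.31 (0.601 to 2.49). RR46_05651 rose by 4.98, from 5.59 to 207 in the male, and went from 71.3 to 0.0404, or 3 reads, in the female. Its highest value was 566 in instar 2. RR46_12990 had a male difference of -2.50, from 29.4 to 4.39, and a female rise from 26.5 to 154. RR46_01193 had a male difference of -2.45, from 216 to 38.7, and a female rise from 108 to 655. Both of these genes were also high in the egg, at 67.1 and 248.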

How the results depend on the processing

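The 10 counts and correlations were recomputed 96 times, and 79 of the values kept to 1.5-fold (counts) or 0.05 (rho) of that reported, while 17 moved. Counts and rho were sorted only as kept or moved, so a reversal could not be recorded for them. None of 153 values for the 17 named genes changed sign. Most of these genes were named for large changes, which the settings tried could hardly have turned. With a pseudocount of 0.1, 1254 genes fell in the male, 656 rose and 456 fell in both sexes, 742 fell in the male only and 139 changed opposite ways. With a difference of 1, 2885 rose and 3107 fell in the male, 987 rose and 855 fell in both sexes, 1696 rose and 1865 fell in the male only, and 589 changed opposite ways. The balance of risers over fallers in the male thus turned, from 64.7% to 48.1% risers. A lower limit admits more genes by construction. A male-only riser defined by a female difference under 1 gave 631 genes, and by a male difference that exceeds the female by 2 or more 638. With the same sum without the 10 leading genes, 298 genes fell in the male only in place of 450. The rho of the male pupa and adult was 0.497 over genes at an RPKM of 5 or more and 0.734 over the complete table. Rescaling moved the share of risers among changed genes from 64.7% to between 65.8% and 74%. Shifts of the median male difference over 0.1 came from the median ratio (0.13) and from the sum without the leading genes (0.24). No paired analysis was possible because each group has 1 library. Genes under about 3 reads in a library cannot be told from 0 at this depth.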

Other observations

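The largest fall among the genes that fell in the male only was that of RR46_02278, a gene of 381 bp named after its value was seen. Its RPKM was 8297 in the male pupa and 111 in the male adult, against 461 and 146 in the female. In the egg and larvae it ranged from 286 to 992, so that the male pupa stood apart from the other 9 libraries. Its female difference was -1.65.

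A further run of 8 risers, from RR46_09540 to RR46_09547, was low in the male pupa. These genes lay between 4.23 and 14.2 in the male adult and between 0.132 and 2.61 in the male pupa. Their male adult median was 8.62, beside 9.87 over all genes compared. Of the run, 6 rose in the male only and 2 in both sexes, with values up to 255 in the egg and larvae and 24.9 in the female adult. Their lengths were 1473 to 4062 bp.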
